A study of Mus musculus with 36 samples.

Results

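Ribosome biogenesis genes encode the factors that transcribe, modify, cut and fold ribosomal RNA (rRNA) and assemble it with ribosomal proteins in the nucleolus. Their expression was compared between dendritic cells (DCs) that carry thrombomodulin on their surface (TM+ DCs) and DCs that do not (TM- DCs), and between cultures with and without soluble thrombomodulin (sTM). The 45 genes were listed by symbol for their role: 4 in rRNA transcription, 4 nucleolar organisers and chaperones, 8 in rRNA modification, and the others in assembly of the small or the large subunit. Of the 45 genes, 43 had a transcript cluster of their own among the 19938 genes tested, and all 43 are counted below. Noc2l had no such cluster, and Ppan shared its cluster with another gene, so that neither was analysed here.

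Bone marrow cells of young adult Balb/c mice were in all cultures differentiated with granulocyte-macrophage colony-stimulating factor at 100 ng/ml and harvested on day 6, and treated cultures received human sTM at 200 nM on day 4. TM+ and TM- DCs were separated with magnetic beads (MACS), and the purity of the populations was stated only as a minimum. The 20 arrays of sorted DCs comprised 4 of TM+ and 4 of TM- DCs without treatment (experiments 3 and 4) and 6 of TM+ and 6 of TM- DCs with sTM (experiments 2, 3 and 4), with 2 arrays per group in each experiment. The 16 arrays of unsorted DCs comprised 8 from untreated and 8 from sTM-treated cultures (experiments 1, 2 and 3). The labels call the arrays biological replicates, but do not say whether they came from separate mice or cultures, so that the spread behind each p-value is that of arrays and may be in part technical.

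In a growing cell, RNA polymerase I transcribes the long rRNA precursor in the nucleolus. Small nucleolar ribonucleoproteins then pseudouridylate it (the H/ACA class) or methylate it on ribose (the C/D class), while the small subunit processome and a series of large subunit precursors cut and fold it. The transcription factor MYC, with its partner MAX, is known to bind the E-box sequence CACGTG and to activate many genes of this pathway. Myc was therefore listed with the genes of rRNA transcription.

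Because these genes are commonly read for E-boxes, their promoters were searched. RefSeq promoter windows (mouse build GRCm38.p6, 250 bases before to 50 after the annotated start) were at hand for 36 of the 43 genes. They were missing for Myc, Npm1, Fbl, Gnl2, Rrp12, Bop1 and Rrs1. CACGTG, which reads the same on both strands, occurred in the windows of 9 of the 36 genes (25%). It did so for 8.1% of all 27025 genes with a window and for 9.5% of the 15563 tested genes with one. The 9 genes were Imp4, Ltv1, Nle1, Nop2, Pes1, Rrn3, Tsr1, Utp20 and Wdr43. Of these windows, 3 are shown with the E-box in capitals and the rest in lower case, 5′ to 3′ on the strand of the gene: Tsr1, which had the largest sorting effect among the 9 genes (chr11:74897830-74898129, plus strand, E-box 24 bases after the start), Nop2 (chr6:125131633-125131932, plus strand, 60 bases before the start) and Nle1, whose expression differed little between the fractions (chr11:82908346-82908645, minus strand, 23 bases after the start). The windows of Dkc1 (chrX:75095604-75095903, plus strand) and Nop58 (chr1:59684756-59685055, plus strand), which had the largest sorting effects after Myc, held no CACGTG.
Tsr1: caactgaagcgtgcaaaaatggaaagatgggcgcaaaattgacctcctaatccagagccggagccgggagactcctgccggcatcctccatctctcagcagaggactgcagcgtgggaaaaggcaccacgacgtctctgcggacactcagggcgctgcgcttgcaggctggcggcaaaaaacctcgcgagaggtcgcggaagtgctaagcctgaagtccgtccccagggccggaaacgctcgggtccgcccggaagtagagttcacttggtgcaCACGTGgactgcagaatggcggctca
Nop2: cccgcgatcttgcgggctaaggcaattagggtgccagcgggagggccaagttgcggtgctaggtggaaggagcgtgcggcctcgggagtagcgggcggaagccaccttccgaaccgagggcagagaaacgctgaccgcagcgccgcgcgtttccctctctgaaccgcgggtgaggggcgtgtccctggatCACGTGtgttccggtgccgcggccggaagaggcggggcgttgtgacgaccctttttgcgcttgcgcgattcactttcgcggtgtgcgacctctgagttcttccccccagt
Nle1: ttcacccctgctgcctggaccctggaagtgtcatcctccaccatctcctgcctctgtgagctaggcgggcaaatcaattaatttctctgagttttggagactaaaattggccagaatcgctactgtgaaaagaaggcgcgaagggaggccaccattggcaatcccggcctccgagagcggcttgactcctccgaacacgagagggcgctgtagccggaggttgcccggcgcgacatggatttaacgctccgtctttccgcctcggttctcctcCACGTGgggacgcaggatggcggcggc
Dkc1: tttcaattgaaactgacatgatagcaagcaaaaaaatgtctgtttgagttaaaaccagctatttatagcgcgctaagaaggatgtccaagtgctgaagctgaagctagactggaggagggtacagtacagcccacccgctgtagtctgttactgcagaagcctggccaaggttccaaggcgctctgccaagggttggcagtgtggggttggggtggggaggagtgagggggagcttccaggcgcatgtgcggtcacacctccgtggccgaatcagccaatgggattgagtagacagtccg
Nop58: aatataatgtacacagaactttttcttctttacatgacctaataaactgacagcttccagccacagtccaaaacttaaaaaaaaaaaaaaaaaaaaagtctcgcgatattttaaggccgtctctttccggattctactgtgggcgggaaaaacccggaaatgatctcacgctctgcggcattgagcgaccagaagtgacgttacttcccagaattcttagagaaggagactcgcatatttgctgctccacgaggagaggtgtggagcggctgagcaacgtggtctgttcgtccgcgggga

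Of the other motifs searched on both strands, the E-box variant CACGCG occurred in 22.2% of the 36 genes against 14.9% of tested genes with a window. CACATG occurred in 16.7% against 12.6%, the CCAAT box in 36.1% against 41.7%, and CCGGAAG, the core that ETS factors bind, in 33.3% against 13.6%. The ETS core was found in 12 of the 36 genes, Tsr1, Nop2, Gar1 and Heatr1 among them. The median log2 difference between TM+ and TM- DCs was 0.86 over the 9 genes with CACGTG and 0.95 over the 27 without it. A match is a description of the window and was not tested against binding.

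All values are log2 of array intensities that were normalized by RMA, so that a difference of 1 is a factor of 2 in intensity, and levels of different genes are not compared. Arrays of the same group and experiment correlated between 0.968 and 0.9966 in sorted DCs and between 0.9479 and 0.9959 in unsorted DCs. The list mean of DC markers was 10.05 to 10.90 over the arrays. Since RMA values have no zero and no detection call was made, this is not a check of the cell type. Thbd, which encodes thrombomodulin, was 0.24 higher in TM+ than in TM- DCs (SE 0.12, limma, adjusted p = 0.12), which did not pass the test, so that the sort could not be checked by this transcript. In experiment 1, the unsorted arrays fell apart within each treatment: arrays 1 and 2 had higher levels of the ribosome biogenesis and cell division genes than arrays 3 and 4, and results for unsorted DCs are given with and without that experiment.

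Ribosome biogenesis genes were higher in TM+ than in TM- DCs. In the model of the 20 sorted arrays (limma, Benjamini-Hochberg over all genes, adjusted p below 0.05), 39 of the 43 genes were higher in TM+ DCs, where 18.6% of all genes were, and 0 were lower, where 18.7% of all genes were. The median difference was 0.86 against -0.08 over all genes, with a range of 0.15 to 2.29. The genes that did not pass were Utp15, Nle1, Nop14 and Gnl3, with differences of 0.15, 0.15, 0.19 and 0.29. All 4 genes of rRNA transcription, all 4 nucleolar organisers and chaperones and all 8 genes of rRNA modification were higher, as were 12 of 14 genes of the small and 11 of 13 of the large subunit. The medians were 0.95, 0.96, 1.02, 0.81 and 0.71 in that order, and the ranges of the 5 lists overlapped. The difference between the lists was not tested.

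**Figure D1:**
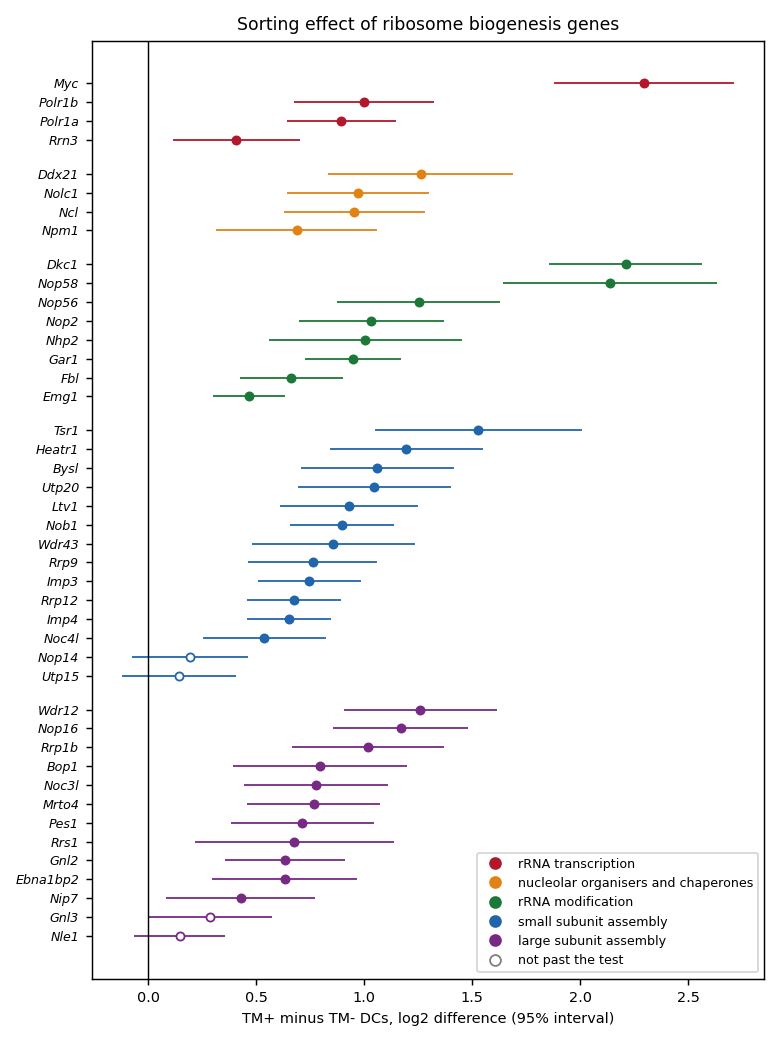
Sorting effect of the 43 ribosome biogenesis genes, as log2 difference of TM+ minus TM- DCs with its 95% interval from limma (20 arrays), ordered by role and size. Filled points passed the test and open points did not. All 43 points lie above 0, from 0.15 to 2.29, and Myc, Dkc1 and Nop58 lie above 2.

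The difference was largest in experiment 4. Within experiments, the median of the 43 genes was 0.45 in experiment 2 (sTM-treated), 0.41 in experiment 3 (untreated), 0.45 in experiment 3 (sTM-treated), 1.49 in experiment 4 (untreated) and 1.11 in experiment 4 (sTM-treated). The difference was above 0 for 35, 40, 40, 43 and 43 of the 43 genes. Over all 19938 genes it was above 0 for 9283, 11324, 6385, 7137 and 7748 in the same order. Without experiment 4, 22 of the 43 genes were called higher, where 7.44% of all genes were, and the median was 0.45. These were 2 of 4 genes of rRNA transcription (Myc and Polr1a), 3 of 4 nucleolar organisers, 6 of 8 genes of rRNA modification, 8 of 14 of the small and 3 of 13 of the large subunit (Wdr12, Rrp1b and Nop16). Rrn3 had a difference of -0.07 without experiment 4 (SE 0.12, limma, adjusted p = 0.853), against a difference of 0.41 with it, and Utp15 and Nop14 also had values just below 0.

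**Figure D2:**
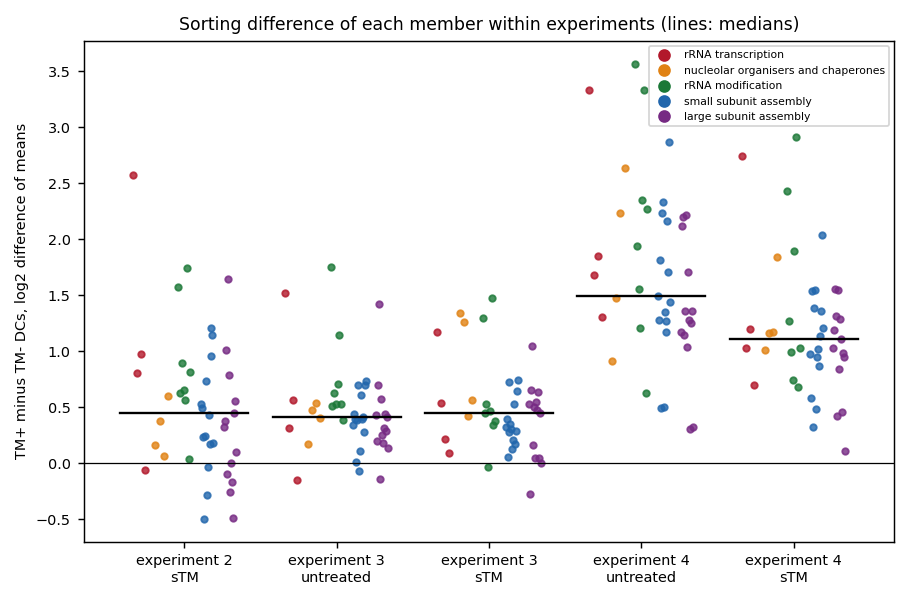
Difference of means between TM+ and TM- DCs (log2) for each of the 43 genes within each experiment and treatment, coloured by role, with 2 arrays per fraction. Horizontal lines are the medians over the 43 genes, 0.45, 0.41, 0.45, 1.49 and 1.11 from left to right, so that both columns of experiment 4 stand above the others.

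Genes of other processes moved with the same sort. All 17 cell division genes were higher in TM+ DCs (median 1.96, with 3.65 for Ccna2 and 0.92 for Mki67), and their list mean was 9.45 to 10.73 in TM+ and 7.58 to 8.03 in TM- arrays of untreated cultures, and 9.01 to 10.39 and 7.24 to 8.14 in those of sTM-treated cultures. Of 13 granulocyte genes, 10 were higher (median 0.70, with 2.15 for S100a8). Their list mean was 8.76 to 9.40 in TM+ and 7.50 to 8.02 in TM- arrays of untreated cultures, and 7.41 to 8.89 and 7.11 to 7.92 in those of sTM-treated cultures. Of 9 macrophage and monocyte genes, 6 were higher and 1 lower (median 0.68), and their list mean was 10.05 to 10.46 in the TM+ and 9.25 to 9.76 in the TM- arrays of both treatments, with no overlap. No marker is at 0, since RMA values have no zero. Within experiments, in the order given above, the cell division median was 1.64, 1.15, 1.23, 2.80 and 2.36, the granulocyte median 0.39, 0.66, 0.09, 1.71 and 0.95, and the macrophage and monocyte median 0.92, 1.11, 0.24, 0.24 and 0.60. In the same order, the ribosome biogenesis median was 0.45, 0.41, 0.45, 1.49 and 1.11. Of 13 DC genes, 5 were higher and 7 lower, of 10 genes of early progenitors 4 and 1, of 9 genes of mast cells, basophils and eosinophils 2 and 1, and of 9 lymphocyte and 3 erythroid genes 0 and 0. The part of these lists in the differences of the ribosome biogenesis genes was not tested, and in these pooled cells, fewer cells of a type and less RNA per cell cannot be told apart.

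Among the genes of rRNA transcription, Myc had the largest difference of all 43. In untreated cultures its level was 9.95, 10.10, 10.75 and 10.88 in TM+ DCs and 8.53, 8.48, 7.01 and 7.95 in TM- DCs. In sTM-treated cultures, TM+ DCs ranged from 9.52 to 10.58 with a median of 10.15, and TM- DCs from 7.44 to 8.64 with a median of 7.82. The lowest TM+ array lay above the highest TM- array of either treatment. The difference was 2.29 (SE 0.20, limma, adjusted p = 1.94e-08), which is 4.91-fold, and it was 2.57, 1.52, 1.17, 3.33 and 2.75 within experiments.

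Polr1a and Polr1b encode the largest subunits of RNA polymerase I. Polr1a was at 8.07, 8.16, 8.72 and 8.63 in TM+ and 7.80, 7.80, 6.95 and 7.04 in TM- DCs of untreated cultures, and at 8.03 to 8.33 (median 8.11) and 7.08 to 7.81 (median 7.29) in those of sTM-treated cultures. The fractions did not overlap, and the difference was 0.89 (SE 0.12, limma, adjusted p = 5.95e-06). Polr1b was at 8.15, 8.23, 8.72 and 8.55 in TM+ and 7.62, 7.64, 6.64 and 6.92 in TM- DCs of untreated cultures. With sTM it was at 7.63 to 8.06 (median 7.79) and 6.50 to 7.99 (median 6.91), so that the fractions overlapped there through array 2 of experiment 3. Its difference was 1.00 (SE 0.16, limma, adjusted p = 3.33e-05). Rrn3, which brings the polymerase to the rRNA gene promoter, had the smallest difference in this list, 0.41 (SE 0.14, limma, adjusted p = 0.0285). Its levels in untreated cultures were 9.29, 9.42, 9.84 and 9.68 in TM+ and 9.48, 9.53, 8.54 and 8.37 in TM- DCs. In these cultures TM- DCs lay below TM+ DCs in experiment 4 and above or among them in experiment 3, and TM+ exceeded TM- DCs in 6 of 10 pairs of arrays with the same experiment, treatment and number.

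The nucleolar organisers and chaperones were also higher in TM+ DCs. Ddx21, a nucleolar RNA helicase, was at 9.19, 9.21, 10.27 and 10.21 in TM+ and 8.98, 8.61, 7.49 and 7.72 in TM- DCs of untreated cultures, and at 8.85 to 9.81 (median 9.58) and 7.84 to 9.09 (median 8.30) in those of sTM-treated cultures. The difference was 1.26 (SE 0.21, limma, adjusted p = 5.59e-05). Within experiments it was 2.64 and 1.84 in experiment 4 and between 0.41 and 0.60 in the others. Nolc1, a chaperone of small nucleolar ribonucleoproteins, was at 8.44, 8.58, 9.65 and 9.61 in TM+ and 7.93, 8.003, 7.32 and 7.47 in TM- DCs of untreated cultures. Its difference was 0.97 (SE 0.16, limma, adjusted p = 5.46e-05), but only 0.06 in experiment 2. Ncl, which encodes nucleolin, was 0.95 higher (SE 0.16, limma, adjusted p = 6.24e-05) and was higher in all 10 pairs. Npm1, which encodes nucleophosmin, had the smallest difference of the list, 0.69 (SE 0.18, limma, adjusted p = 0.00464). Its TM+ and TM- arrays of untreated cultures overlapped (10.42 to 11.29 against 10.12 to 10.66).

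The genes of rRNA modification held the largest differences after Myc. Dkc1, which encodes dyskerin, the pseudouridine synthase of H/ACA ribonucleoproteins, was at 7.92, 7.72, 8.92 and 8.58 in TM+ and 6.31, 5.83, 4.997 and 5.37 in TM- DCs of untreated cultures. With sTM it was at 6.91 to 7.76 (median 7.41) and 5.26 to 5.94 (median 5.64). The fractions were apart in all 20 arrays. The difference was 2.21 (SE 0.17, limma, adjusted p = 3.41e-09), or 4.63-fold, with 1.57, 1.75, 1.29, 3.57 and 2.43 within experiments. The other H/ACA proteins, Nhp2 and Gar1, were 1.01 and 0.95 higher.

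Nop58, a core protein of C/D ribonucleoproteins, was at 7.83, 7.86, 9.44 and 9.26 in TM+ and 6.98, 6.42, 5.81 and 6.22 in TM- DCs of untreated cultures, and at 7.31 to 9.32 (median 9.01) and 5.68 to 7.30 (median 6.34) in those of sTM-treated cultures. The arrays of the fractions did not overlap, with a difference of 2.14 (SE 0.24, limma, adjusted p = 4.96e-07). Nop56, another core protein of this class, was 1.25 higher (SE 0.18, limma, adjusted p = 1.40e-05), with 10.10, 10.19, 10.92 and 10.82 in TM+ and 9.43, 9.44, 8.40 and 8.63 in TM- DCs of untreated cultures. Fbl, the ribose methyltransferase of the C/D class, was 0.66 higher. Outside these complexes, Nop2, a cytosine methyltransferase of the large subunit rRNA, was 1.03 higher. Emg1, which methylates a pseudouridine of the small subunit rRNA, had the smallest difference of the list, 0.47 (SE 0.08, limma, adjusted p = 9.46e-05), and was higher in all 10 pairs.

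**Figure D3:**
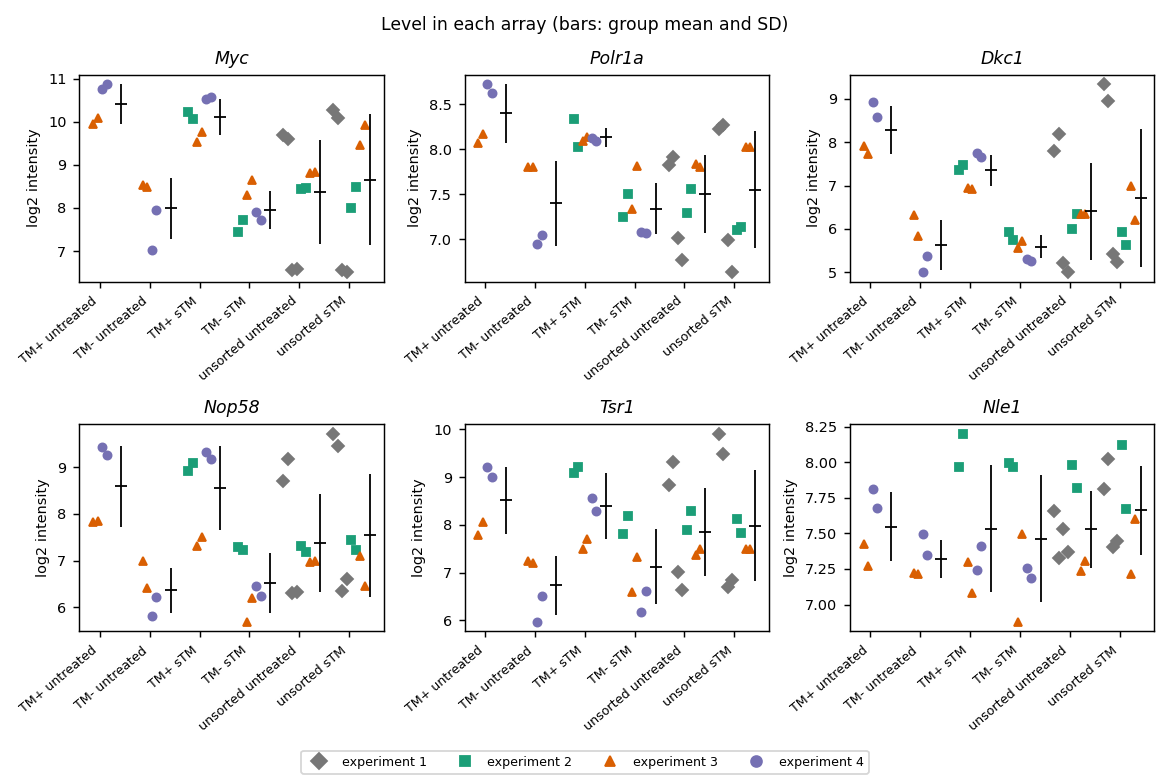
Log2 intensity of Myc, Polr1a, Dkc1, Nop58, Tsr1 and Nle1 in each of the 36 arrays by group, with symbols by experiment and bars for the group mean and SD. The TM+ and TM- arrays of Myc, Polr1a, Dkc1 and Nop58 do not overlap, those of Nle1 do, and the unsorted arrays of experiment 1 (diamonds) fall apart within each treatment for the genes other than Nle1.

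In the small subunit list, Tsr1, a GTPase-like factor of late small subunit precursors, had the largest difference. Its level was 7.78, 8.06, 9.22 and 9.01 in TM+ and 7.25, 7.21, 5.97 and 6.52 in TM- DCs of untreated cultures, and 7.51 to 9.21 (median 8.44) and 6.17 to 8.19 (median 6.97) in those of sTM-treated cultures. The fractions overlapped in the sTM-treated cultures across experiments but not within them, and the difference was 1.53 (SE 0.23, limma, adjusted p = 2.28e-05). Heatr1, a protein of the early complex that links rRNA transcription to processing, was at 8.95, 9.05, 9.86 and 9.58 in TM+ and 8.30, 8.29, 7.19 and 7.60 in TM- DCs of untreated cultures. Its difference was 1.20 (SE 0.17, limma, adjusted p = 1.21e-05). Bysl, which stays with the small subunit precursor until late steps, was 1.06 higher (SE 0.17, limma, adjusted p = 4.30e-05).

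The other small subunit genes that passed were between 0.54 (Noc4l) and 1.05 (Utp20) higher. Among them, Imp3 and Imp4, partners of the U3 small nucleolar RNA in the processome, were 0.75 and 0.65 higher, and Nob1, the nuclease of the last cut of the small subunit rRNA, was 0.90 higher. Imp4 was the small subunit gene with no overlap of TM+ and TM- DCs over all 20 arrays. Utp15, a processome protein, was nearest to 0, with a difference of 0.15 (SE 0.13, limma, adjusted p = 0.358, 95% interval -0.12 to 0.41). It was at 8.38, 8.47, 8.59 and 8.48 in TM+ and 8.55, 8.28, 8.16 and 7.91 in TM- DCs of untreated cultures, and its difference was -0.50 in experiment 2.

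In the large subunit list, Wdr12, Pes1 and Bop1 encode the PeBoW complex, which is needed to process the large subunit rRNA. They were 1.26 (SE 0.17, limma, adjusted p = 6.13e-06), 0.71 and 0.79 higher in TM+ DCs. Wdr12 was at 7.15, 7.002, 8.47 and 8.34 in TM+ and 6.61, 6.14, 6.17 and 6.25 in TM- DCs of untreated cultures, and at 6.88 to 8.12 (median 7.65) and 5.88 to 6.82 (median 6.66) in those of sTM-treated cultures. Its fractions did not overlap. Bop1 had a difference of -0.27 in sTM-treated cultures of experiment 3, and its fractions overlapped there. Nop16, a nucleolar factor of early large subunit precursors, was at 10.29, 10.34, 11.31 and 11.19 in TM+ and 9.79, 9.69, 8.93 and 9.14 in TM- DCs of untreated cultures, with a difference of 1.17 (SE 0.15, limma, adjusted p = 3.07e-06).

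Rrp1b was 1.02 higher (SE 0.17, limma, adjusted p = 6.83e-05) and followed another order of experiments. It was at 9.82, 9.85, 8.72 and 8.51 in TM+ and 8.45, 8.38, 7.40 and 7.55 in TM- DCs of untreated cultures. Its difference was 1.42 and 1.05 in experiment 3, 1.14 and 1.31 in experiment 4 and -0.10 in experiment 2. Among the GTPases of large subunit assembly, Gnl2 was 0.63 higher and Gnl3 (nucleostemin) had a difference of 0.29 (SE 0.14, limma, adjusted p = 0.103). Nip7 passed narrowly, with 0.43 (SE 0.17, limma, adjusted p = 0.0464). Nle1, an assembly factor of late nucleolar precursors, was nearest to 0 at 0.15 (SE 0.10, limma, adjusted p = 0.243, 95% interval -0.06 to 0.36). Its levels were 7.43, 7.27, 7.81 and 7.68 in TM+ and 7.22, 7.22, 7.50 and 7.35 in TM- DCs of untreated cultures, and 7.08 to 8.20 (median 7.35) and 6.88 to 7.997 (median 7.38) in those of sTM-treated cultures.

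Over all 20 arrays, 7 of the 43 genes had every TM+ array above every TM- array, where 2.2% of all genes did: Myc, Polr1a, Dkc1, Gar1, Nop58, Imp4 and Wdr12. In untreated cultures 35 of the 43 did, where 12.7% of all genes did, and in sTM-treated cultures 10 did, where 3.28% did. By pairs of arrays, 24 of the 43 genes were higher in TM+ DCs in all 10 pairs, where 8.26% of all genes were. Same-numbered TM+ and TM- arrays did not deviate together in every experiment. In sTM-treated and untreated cultures, the correlations of their deviations were 0.31 and 0.12 in experiment 4 and -0.08 and -0.25 in experiment 3. In experiment 2 the correlation was 0.07. These pairs are therefore matches by label and not 10 paired observations. In experiment 2, the differences were below 0 for 8 of the 43 genes, where 10655 of 19938 genes were. Utp15 (-0.50), Gnl3 (-0.49), Nop14 (-0.28) and Nip7 (-0.26) were the lowest among them.

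The sorting effect was called in cultures of either treatment. In untreated cultures 35 of 43 genes were higher, where 13.2% of all genes were, and 0 were lower, where 7.93% were. In sTM-treated cultures 32 were higher, where 11.6% of all genes were, and 0 were lower, where 12.4% were. The medians were 0.99 and 0.71, and 31 genes passed in both. Wdr43, Noc4l, Bop1 and Ebna1bp2 passed in untreated cultures alone and Npm1 in sTM-treated cultures alone. The difference of Npm1 in untreated and sTM-treated cultures was 0.17 and 1.34 in experiment 3 and 0.91 and 1.01 in experiment 4. In experiment 2, which had sTM-treated cultures alone, it was 0.16. Without experiment 4 the counts were 6 in untreated cultures, where 3.78% of all genes were called, and 16 in sTM-treated cultures, where 5.7% were. Untreated cultures were then left with 2 arrays per fraction, all of experiment 3, and sTM-treated cultures with those of experiments 2 and 3. These 2 counts are therefore not compared.

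The remaining genes of the pathway, listed from general knowledge, were also mostly higher in TM+ DCs. Of 141 such genes 138 were measured, and 98 were higher and 6 lower in TM+ DCs, where 18.6% and 18.7% of all genes were, with a median of 0.47. By role, 7 of 18 further genes of rRNA transcription, 15 of 19 of rRNA modification, 33 of 42 of the small and 32 of 44 of the large subunit, and 11 of 15 of rRNA trimming were higher. The largest rises were in Pa2g4 (1.24, SE 0.15, limma, adjusted p = 1.12e-06), a protein of large subunit precursors, in the small subunit processome genes Wdr75 (1.23, SE 0.22, limma, adjusted p = 1.34e-04), Nol11 (1.18, SE 0.22, limma, adjusted p = 2.05e-04) and Utp14a (2.17-fold, limma, adjusted p = 3.38e-06). Without experiment 4, 18 of the 138 were called higher, where 7.44% of all genes were.

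Of the RNA polymerase I apparatus outside the 43 genes, Polr1f (0.74), Polr1e (0.64) and Polr1h (0.59), subunits of the enzyme, Ubtf (0.62), which binds the rRNA gene, and Tcof1 (0.45) were higher. Polr1d, a subunit shared with RNA polymerase III, was lower (-0.39, SE 0.15, limma, adjusted p = 0.0416), and Polr1c, its partner, was at 0.07. Taf1a, Taf1b and Taf1c, of the promoter selectivity factor, had differences of 0.29, 0.06 and -0.01, none past the test. The largest falls in the pathway were in Zcchc4 (-0.90, SE 0.13, limma, adjusted p = 1.28e-05), an adenosine methyltransferase of the large subunit rRNA, Sbds (-0.80, SE 0.08, limma, adjusted p = 1.23e-07), which acts in the last cytoplasmic step of the large subunit, Rcl1 (-0.63, SE 0.14, limma, adjusted p = 0.00159), a processome protein, and Nufip1 (-0.62, SE 0.13, limma, adjusted p = 9.17e-04), which assembles C/D ribonucleoproteins. Polr1d and Ddx24 (-0.43) were the others that were lower.

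Of 12 transcripts of the wider network of MYC, MAX and the related factor MLX, 3 were lower and 1 was higher in TM+ DCs. Over all genes, 18.7% were lower and 18.6% higher, so that these counts are not read as a change of the network. Mxd1 and Mxi1, whose proteins form repressive dimers with MAX, were lower in TM+ DCs by log2 differences of -1.20 (SE 0.17, limma, adjusted p = 9.76e-06) and -0.74 (SE 0.12, limma, adjusted p = 4.92e-05). Mxd4, a protein of the same family, was 0.43 higher (SE 0.09, limma, adjusted p = 5.48e-04). Mnt was lower (-0.22, SE 0.09, limma, adjusted p = 0.0466), a call that was lost in 16 of 34 alternative analyses. Max (0.18), Mxd3 (0.21), Mycn (-0.19), Mycl (0.07) and Mga (0.05) did not pass the test, nor did Mlx (-0.04) and its partners Mlxip (-0.22) and Mlxipl (-0.07).

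Treatment with sTM was compared next, first in TM+ DCs. None of the 43 genes passed the test there, where 0.381% of all genes were higher and 0.471% lower, although 42 of the 43 estimates were below 0 and the median was -0.33 against -0.02 over all genes. At an unadjusted p under 0.05, 16 were lower and 0 higher. The share of all genes at that threshold is not given here, so that this count is not read as a result about these genes. Dkc1 had the smallest p: with the levels given above, its mean was 8.29 ± 0.56 (SD, n = 4 arrays) in untreated and 7.35 ± 0.36 (SD, n = 6 arrays) in sTM-treated TM+ DCs. The difference was -0.99 (SE 0.25, limma, adjusted p = 0.0603, 95% interval -1.51 to -0.48), with -0.89 in experiment 3 and -1.04 in experiment 4. Nolc1 and Gnl3 followed, with -0.86 (SE 0.23, limma, adjusted p = 0.0901) and -0.61 (SE 0.20, limma, adjusted p = 0.183). Myc was at 10.42 ± 0.46 (SD, n = 4 arrays) and 10.12 ± 0.42 (SD, n = 6 arrays). Within experiments the median of the 43 genes was -0.32 in experiment 3 and -0.42 in experiment 4. The difference was below 0 for 42 and 39 of them, where 12653 and 10118 of 19938 genes were below 0. Of the 13 granulocyte genes, 4 were lower in treated TM+ DCs (median -0.58), and of the 17 cell division genes 0 passed (median -0.23). Their part in the values was not tested. Without experiment 3, 9 of the 43 genes were called lower, where 0.858% of all genes were, and without experiment 4, 2 were, where 1.26% were. In either case untreated arrays were left from a single experiment, while sTM-treated arrays also included those of experiment 2. Treatment and experiment could then not be fully told apart.

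Same-numbered arrays of sTM-treated and untreated TM+ DCs deviated together from their group means, with correlations over genes of 0.40 in experiment 3 and 0.35 in experiment 4. With 2 arrays per group, array 2 mirrors array 1, so that these are 2 independent values, and the labels do not say that a number marks a shared culture. Replicate blocks by number were fitted with experiment as a fixed factor, so that 2 choices changed at once. The fitted correlation within blocks was -0.13 by experiment and number and -0.24 by experiment, treatment and number. The calls below are therefore not credited to pairing. With a replicate block by experiment and number, Gnl3 was lower in treated TM+ DCs (-0.69, SE 0.16, limma, adjusted p = 0.0347), as the only gene of the 43, where 0.547% of all genes were. With a block by experiment, treatment and number, which joins TM+ with TM- arrays, Gnl3 (-0.69, SE 0.15, limma, adjusted p = 0.0151), Dkc1 (-1.02, SE 0.24, limma, adjusted p = 0.0276) and Nolc1 (-0.86, SE 0.22, limma, adjusted p = 0.0463) were lower, where 0.808% of all genes were.

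In TM- DCs, 0 of the 43 genes passed for treatment, as did 0% of all genes in either direction (0% higher, 0% lower). The median was -0.02, with 19 estimates above and 24 below 0. Only Gnl3 had an unadjusted p under 0.05, with -0.44 (SE 0.20, limma, adjusted p = 0.998). The experiments differed, with a median of -0.30 in experiment 3 and 0.10 in experiment 4. Averaged over TM+ and TM- DCs, 0 of the 43 genes passed, where 0.01% of all genes were higher and 0.00502% lower. The median was -0.17 and 9 genes were lower at an unadjusted p under 0.05. Without the share of all genes at that threshold, this count is not read as a result about these genes. Gnl3 (-0.53, SE 0.15, limma, adjusted p = 0.193), Dkc1 (-0.55, SE 0.18, limma, adjusted p = 0.312) and Nolc1 (-0.44, SE 0.17, limma, adjusted p = 0.434) had the smallest p.

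Whether the sorting effect differed with treatment was tested by the interaction. It passed for 0 of the 43 genes, where 0% of all genes were higher and 0.01% lower. Of the 43, 2 had an unadjusted p under 0.05, Nolc1 (-0.83, SE 0.32, limma, adjusted p = 0.632) and Dkc1 (-0.89, SE 0.34, limma, adjusted p = 0.640). The next was Heatr1, at -0.64 (SE 0.34, limma, adjusted p = 0.859). The share of all genes at the unadjusted threshold is not given here, so that the count of 2 is not read as a result. The sorting effect was larger in untreated than in sTM-treated cultures for 41 of the 43 genes, with a median interaction of -0.37 against -0.04 over all genes. Within experiments, this median was -0.04 in experiment 3 and -0.46 in experiment 4, against -0.14 and 0.02 over all genes. The interaction was below 0 for 24 and 39 of the 43 genes, where 13835 and 9196 of 19938 genes were. Experiment 2 held sTM-treated sorted arrays alone, so that the pooled count of 41 also sets unlike experiments side by side. Without experiment 3 the interaction passed for 7 of the 43 genes, all lower, where 0.923% of all genes were lower, and without experiment 4 for 0, where 0.527% were lower, with a median of 0.02. In both settings untreated arrays came from a single experiment and sTM-treated arrays also from experiment 2. Treatment and experiment could then not be fully told apart.

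**Figure D4:**
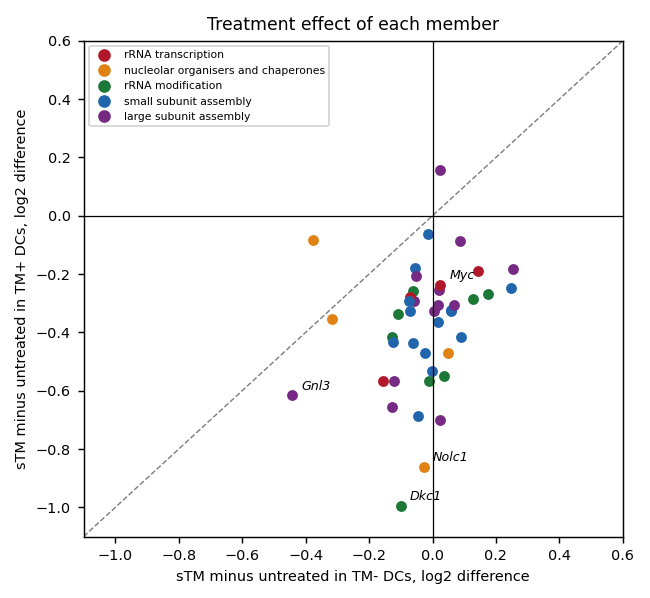
Treatment effect (sTM minus untreated, log2 difference from limma) of each of the 43 genes in TM- DCs (horizontal axis) and TM+ DCs (vertical axis), coloured by role, with the dashed line where both are equal. Of the 43 points, 42 lie below 0 in TM+ DCs, while those in TM- DCs lie on both sides of 0, and Dkc1 is lowest at -0.99; 0 passed the test in either fraction.

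In unsorted DCs, levels of ribosome biogenesis genes varied more between the arrays of experiment 1 than between treatments. The mean of the 43 genes was 8.75 and 8.82 in arrays 1 and 2 and 7.64 and 7.61 in arrays 3 and 4 of untreated cultures, and 9.23 and 9.18 against 7.64 and 7.66 in those of sTM-treated cultures. Myc was at 9.69, 9.59, 6.55 and 6.58 in these untreated arrays and at 10.27, 10.08, 6.57 and 6.50 in the treated arrays. Dkc1 was at 7.81, 8.20, 5.21 and 4.99, and at 9.35, 8.94, 5.41 and 5.22. The cell division mean moved with them, at 8.89 to 9.81 in arrays 1 and 2 and 7.31 to 7.50 in arrays 3 and 4. The labels give no difference between these arrays, and no group was made of them.

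Across the 16 unsorted arrays, 0 of the 43 genes passed for treatment, as did 0% of all genes, and 0 of the 43 had an unadjusted p under 0.05. The median was 0.11, with 34 estimates above 0. The smallest p were those of Nob1 (0.30), Rrp1b (0.34) and Nop16 (0.33), each with limma's adjusted p = 0.9995. The median within experiments was 0.20 in experiment 1, 0.01 in experiment 2 and 0.10 in experiment 3. The difference was above 0 for 41, 22 and 30 of the 43 genes, where 10022, 10145 and 12685 of 19938 genes were above 0. Without experiment 1, 0 genes passed and the median was 0.05.

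Where 1 experiment held sorted and unsorted arrays of the same treatment, the unsorted level was set beside the fractions. In experiment 3, untreated, it lay between the fractions for 36 of the 43 genes and nearer to TM- DCs for 40. In experiment 2, sTM-treated, it was nearer to TM- DCs for 39, and below both fractions for 27. In experiment 3, sTM-treated, it was above both fractions for 26 and nearer to TM- DCs for 7, with a median of 0.48 above TM- and 0.03 above TM+ DCs. There Myc was at 9.46 and 9.92 unsorted, 9.52 and 9.77 in TM+ and 8.31 and 8.64 in TM- DCs. Over all genes, the median of unsorted minus TM- DCs was -0.005, -0.001 and -0.056 in the order of these comparisons. That of unsorted minus TM+ DCs was -0.043, 0.027 and 0.071. The positions are a description with 2 arrays per group. They were not counted over all genes, so that they are not read as particular to the 43 genes.

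**Figure D5:**
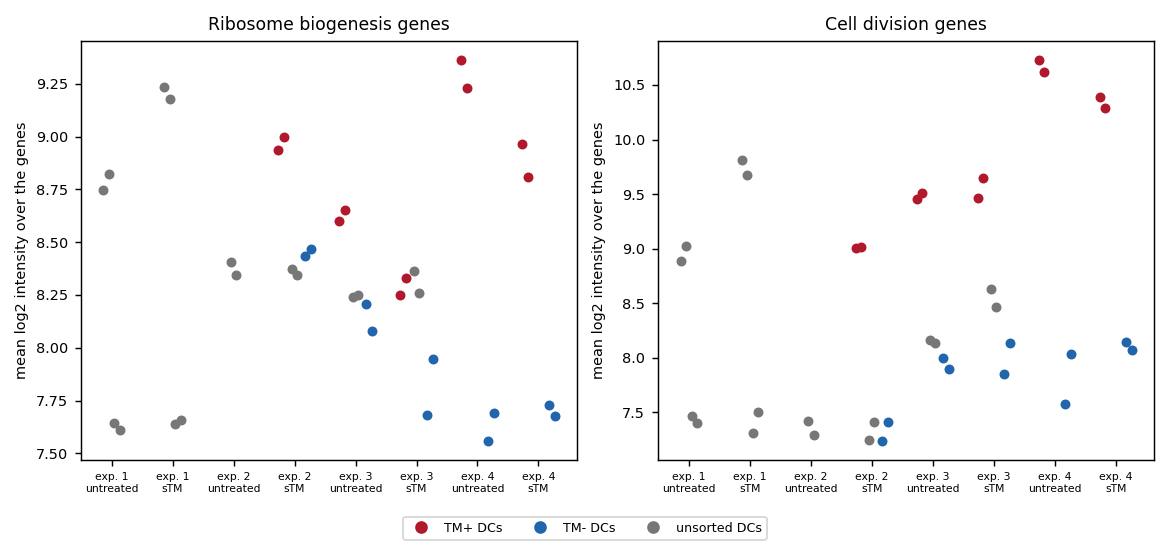
Mean log2 intensity of the 43 ribosome biogenesis genes (left) and of 17 cell division genes (right) in each array, by experiment and treatment, with colours for TM+, TM- and unsorted DCs. In each experiment with sorted arrays, TM+ lie above TM- arrays in both panels, and the unsorted arrays of experiment 1 split in both panels.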

How the data were processed

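RNA of DCs was hybridized to 36 Mouse Gene 1.0 ST arrays. The authors deposited intensities on a linear scale, and per the labels these were summarized into 35556 transcript clusters with RMA. The sources used here do not say whether RMA was run on all arrays at once. The number of arrays limits the precision.

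The log2 was taken with no filter or scaling. Platform annotation gave 1 symbol to 21789 clusters, several to 1621 and none to 12146. Per symbol, the cluster with the highest mean over all arrays was tested. Fbl, Wdr12 and Mrto4 had a second cluster, whose sorting differences were 0.84, 1.39 and 0.79. The model held the 4 groups of sorted DCs with experiment as a random block (correlation 0.396), and unsorted DCs were fitted alone (0.375), in R 4.3.3 with limma 3.58.1 and statmod 1.5.0. The sorting effect averages the TM+ minus TM- differences of both treatments. P-values were adjusted by Benjamini-Hochberg over 19938 genes, and the test was passed at an adjusted p below 0.05. Array numbers paired sTM-treated with untreated TM+ arrays by their deviations from the group means, but TM+ with TM- arrays not in every experiment. Blocks by number, with experiment as a fixed factor, were therefore run as alternatives. The script was tested on simulated data. Promoter windows and their build are from RefSeq. Values and figures were made with Python 3.11.15, numpy 2.4.6, pandas 2.3.3 and matplotlib 3.10.9.

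The genes, the lists and the alternatives were chosen with earlier results of these data known. The genes described with full statistics were Myc, the 3 largest sorting effects and the one nearest to 0 in each list, and, where no gene passed for treatment, the 3 with the smallest p. The alternatives were other terms for experiment, blocks by array number, removal of dim genes (those under the 25th percentile), other clusters, centring on the 75th percentile, quantile normalization, another moderation, array weights, and leaving out arrays or experiments in turn.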

Additional observations from a re-analysis of the deposited data

Results flagged for a closer look

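Of 258 combinations of gene and group, 3 held an array whose gap to its nearest neighbour was large for the range of the group (Dixon's criterion, which chance meets in about 1 of 20 groups). Polr1a was at 8.33 in array 1 of experiment 2 of sTM-treated TM+ DCs, and the next value was 8.14. Fbl was at 9.40 in array 2 of experiment 3 of sTM-treated TM- DCs, and the next value was 8.60. Ebna1bp2 was at 7.27 in array 1 of experiment 4 of untreated TM- DCs, and the next value above it was 7.42.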

How the results depend on the processing

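The 39 genes higher in TM+ DCs were 36 to 40 when each array was left out in turn, and 22 without experiment 4. In untreated cultures the count of 35 was 32 to 37 without 1 array and 6 without experiment 4. In sTM-treated cultures the count of 32 was 23 to 33 without 1 array, 16 without experiment 4 and 19 with no experiment term. Of the further pathway genes, 98 were higher and 6 lower: 88 to 99 and 5 to 6 without 1 array, 18 higher without experiment 4, and 11 lower both with centring on the 75th percentile and with array weights. Rrn3 changed sign without experiment 4 (-0.068). The call of Nip7 was lost in 17 of 34 alternatives. For treatment in TM+ DCs, where 0 genes were lower, the count was 0 to 2 without 1 array, 9 without experiment 3, 2 without experiment 4, 1 with experiment as a fixed factor, with dim genes left out and with quantile normalization, 2 with centring and 3 with array weights. In sorted DCs together it was 3 without experiment 4, 1 with experiment fixed and 3 with array weights, in TM- DCs 1 with array weights, and for the interaction 7 without experiment 3. After removal of group means, correlations of same-numbered TM+ and TM- arrays exceeded 0.1 in 4 of 10 pairs, and those of sTM-treated and untreated arrays in 10 of 16: all of TM+ DCs and of unsorted DCs of experiments 1 and 3, and none of TM- DCs or of unsorted DCs of experiment 2. Replicate blocks by experiment, treatment and number, or by experiment and number, were fitted with experiment as a fixed factor. Under either, 40 genes were higher by sorting, 1 and 1 were lower by treatment in sorted DCs, and 3 and 1 in TM+ DCs. The other counts of members under the block stayed within 1.5 times. Shares of all genes called are given above only for some counts without an experiment or under the blocks. For the other counts, a change cannot be told apart from a setting that calls more or fewer genes of every kind. The causes of these changes were not tested. With centring, the median sorting difference of all genes moved from -0.08 to -0.20 and that of the 43 genes from 0.86 to 0.74. No other result that passed the test changed sign.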
